A study of Mus musculus and Homo sapiens with 8 samples.

Results

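The genes described here are 9 targets of the transcription factor p53 that act in metabolism and stress signalling: GDF15, TP53I3, FDXR, GLS2, SESN1, SESN2, SESN3, TGM2 and DCXR. They were chosen by name, as rows of the mouse thymus table and probes of the human H1299 table that carry these symbols. In thymus 8 of the 9 had a row, among 30854 rows, and TP53I3 was analysed in H1299 alone. In H1299 all 9 had a probe, 14 probes among 47323.

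p53 is best known for stopping the cell cycle and starting apoptosis after DNA damage, but it also switches on genes that change how a cell handles amino acids, iron-sulphur chemistry, reducing power and nutrient sensing. The sestrins (SESN1, SESN2, SESN3) hold back the growth kinase complex mTORC1, GLS2 and FDXR are mitochondrial enzymes, TP53I3 and DCXR reduce quinones and dicarbonyls, TGM2 crosslinks proteins, and GDF15 is a hormone that stressed cells secrete. Several of these genes have other activators: FOXO factors switch on SESN1 and SESN3, and ATF4, the factor of the integrated stress response, switches on SESN2 and GDF15. The thymus is a tissue in which most cells are immature T cells that die readily by a p53-dependent route after irradiation.

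RNA was measured on 8 Illumina bead arrays. In thymus, 2 arrays were labelled TRAF6 null with irradiation, 2 were irradiated wild type and 1 was unirradiated wild type, all from CD-1 background mice aged 2.5 weeks, and the irradiated mice had received 15 Gy and were taken after 10 h. TRAF6 is a ubiquitin ligase that carries signals from TNF receptor family and Toll-like receptors. H1299, a human lung cancer line without p53 of its own, had been transfected with p53 K24R, whose lysine 24 is replaced by arginine, with p53 wild type, or with vector, 1 array each.

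Whether the arrays of 1 group stem from different animals is not told by the labels, and the p-values therefore measure the spread between these arrays, which may be technical. The unirradiated group is 1 array, the H1299 groups have no replicate and get no test, and without an unirradiated TRAF6 null array the effect of the label on the response to irradiation could not be fitted. Traf6 itself had a signal of 537 and 449 on the arrays labelled TRAF6 null, against 327 and 315 in irradiated wild type and 372 on the unirradiated array. That is 2.18-fold higher than in irradiated wild type (log2 difference 1.13 ± 0.20 SE, limma adjusted p = 0.0122), so the Traf6 row goes against the genotype label, and those arrays are called by their label throughout. Where the Traf6 probes lie relative to the deleted part is not known here. Of the thymus arrays' T lineage markers 9 of 9 were above background on every array. KRT8, KRT18 and VIM were detected on all H1299 arrays, while PTPRC and CD3E were on none.

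The start regions of the mouse genes were read from RefSeq (build GRCm38.p6), and 6 of the 8 thymus genes had an entry. Each entry spans 250 bases before to 50 after a start. It was searched on both strands for the p53 decamer, the unit that p53 response elements repeat, for the FOXO motif GTAAACA and for the ATF4 motif TGATGNAA. The p53 decamer occurs in 8.36% of the 32851 entries, the FOXO motif in 3.65% and the ATF4 motif in 3.97%. Among Gdf15, Sesn1, Sesn2, Sesn3, Fdxr and Dcxr, Sesn1 alone held any of them: a p53 decamer at position -173 from its second listed start and a FOXO motif, on the opposite strand, at position 23 from its first. The upstream bases of both Sesn1 starts are shown because Sesn1 was lower after irradiation in wild-type thymus and higher with p53 in H1299, with that of Sesn3, which rose with Sesn1 under the TRAF6 null label, and that of Cdkn1a, the classical p53 target of cell cycle arrest, for comparison. All are written 5′ to 3′, with p53 decamers in capitals.
Sesn1 first start, chr10:41810324-41810573, plus strand: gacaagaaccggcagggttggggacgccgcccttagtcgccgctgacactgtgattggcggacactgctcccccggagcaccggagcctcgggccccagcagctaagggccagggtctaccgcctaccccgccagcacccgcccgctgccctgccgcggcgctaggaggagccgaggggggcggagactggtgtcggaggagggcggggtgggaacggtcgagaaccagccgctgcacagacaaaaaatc
Sesn1 second start, chr10:41887189-41887438, plus strand: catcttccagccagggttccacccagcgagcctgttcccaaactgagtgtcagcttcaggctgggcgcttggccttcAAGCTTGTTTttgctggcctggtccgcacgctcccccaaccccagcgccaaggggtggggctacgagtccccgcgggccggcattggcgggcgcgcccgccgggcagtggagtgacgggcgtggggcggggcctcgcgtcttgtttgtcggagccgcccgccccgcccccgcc
Sesn3, chr9:14276051-14276300, plus strand: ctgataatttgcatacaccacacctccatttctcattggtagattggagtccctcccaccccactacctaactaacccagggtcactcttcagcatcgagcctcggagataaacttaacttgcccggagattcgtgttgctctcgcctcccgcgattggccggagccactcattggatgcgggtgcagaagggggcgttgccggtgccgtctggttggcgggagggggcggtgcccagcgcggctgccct
Cdkn1a first start, chr17:29090729-29090978, plus strand: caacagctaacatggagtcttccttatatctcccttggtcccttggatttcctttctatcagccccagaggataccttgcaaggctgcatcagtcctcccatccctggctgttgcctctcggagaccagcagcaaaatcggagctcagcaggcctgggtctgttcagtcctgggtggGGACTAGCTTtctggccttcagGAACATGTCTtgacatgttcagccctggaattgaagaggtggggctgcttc
The Cdkn1a stretch holds 2 p53 decamers, at positions -73 and -51 from the start, the second Sesn1 stretch holds 1, and the others hold no match to the decamer as searched. A missing match says only that these letters are not in this window.

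The deposited values are mean bead intensities, on a linear scale. Differences below are on the log2 scale after background correction and quantile normalization. A thymus gene is said to rise or fall where its limma p-value, adjusted by Benjamini-Hochberg over all 11563 rows tested, is under 0.05. Where every array of a group left a gene at or under the level of the negative controls, its fold is a bound, written as at least so many fold.

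GDF15 is a secreted member of the TGF-beta superfamily that acts through the receptor GFRAL. In thymus its signal was 100.6 and 120 on the arrays labelled TRAF6 null, 1610.3 and 927 in irradiated wild type and 107 on the unirradiated array. It stood above background in irradiated wild type and on no other array, and it passed the detection filter through those arrays alone. Gdf15 fell at least 26.3-fold in thymus labelled TRAF6 null relative to irradiated wild type (limma adjusted p = 0.00252). It rose at least 29.1-fold with irradiation in wild type (limma adjusted p = 0.00603). Between the arrays labelled TRAF6 null and the unirradiated array both groups were below background, and no fold is given. In H1299 the single GDF15 probe read 4365 ± 79.7 with K24R, 9508 ± 270 with p53 wild type and 234 ± 6.06 with vector (SE over the 25 or 26 beads of each array, which leaves out the spread between cultures). GDF15 was thus 32.8-fold higher with K24R than with vector and 68.8-fold higher with p53 wild type than with vector, and 2.10-fold lower with K24R than with p53 wild type.

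The sestrins did not move together in thymus. Sesn1, the family member first described as a p53 target, had signals of 3481 and 3938 on the arrays labelled TRAF6 null, 958 and 764 in irradiated wild type and 1664 on the unirradiated array. The arrays labelled TRAF6 null were highest and the irradiated wild-type arrays lowest, with the unirradiated array between them. Sesn1 rose 4.85-fold relative to irradiated wild type (log2 difference 2.28 ± 0.17 SE, limma adjusted p = 0.00290) and 2.49-fold relative to the unirradiated array (1.32 ± 0.21 SE, limma adjusted p = 0.0155). It fell 1.94-fold with irradiation in wild type (log2 difference -0.96 ± 0.21 SE, limma adjusted p = 0.0254).

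Sesn2, the sestrin that senses leucine for mTORC1, had signals of 109 and 118 on the arrays labelled TRAF6 null, 165 and 152 in irradiated wild type and 101 on the unirradiated array, and like Gdf15 it was above background, and passed the filter, through irradiated wild type alone. It fell at least 1.47-fold in thymus labelled TRAF6 null relative to irradiated wild type (limma adjusted p = 0.00882) and rose at least 1.62-fold with irradiation in wild type (limma adjusted p = 0.0105). Sesn3, a FOXO target that restrains mTORC1 and oxidative stress, followed Sesn1 in the TRAF6 comparison and not in the irradiation one. Its signals were 268 and 301 on the arrays labelled TRAF6 null, 198 and 184 in irradiated wild type and 173 on the unirradiated array. It rose 2.53-fold relative to irradiated wild type (log2 difference 1.34 ± 0.15 SE, limma adjusted p = 0.00481) and 2.54-fold relative to the unirradiated array (1.35 ± 0.18 SE, limma adjusted p = 0.0121). In wild type its normalized values with and without irradiation overlapped (log2 difference 0.01 ± 0.18 SE, limma adjusted p = 0.967).

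In H1299 the sestrin probes lay close to background. SESN1 read 172 with K24R, 179 with p53 wild type and 118 with vector, where it was not above background, which makes it at least 1.92-fold higher with K24R than with vector and at least 2.23-fold higher with p53 wild type than with vector. SESN2 read 144 with K24R, 177 with p53 wild type and 135 with vector, and was 2.16-fold higher with p53 wild type than with vector (log2 difference 1.11), while K24R differed from vector by 0.29. SESN3 read 133 with K24R, 123 with p53 wild type and 129 with vector, and was above background with K24R alone, so no difference of SESN3 between p53 wild type and vector is given. The SESN1 signal with K24R and with p53 wild type differed by -6.5 ± 10.7 intensity units (SE over beads), less than the bead error. The sestrin that fell in irradiated wild-type thymus, Sesn1, was thus higher with p53 in H1299. SESN2 was higher in both, but in thymus it passed the filter through irradiated wild type alone.

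Among the mitochondrial enzymes, Gls2, a glutaminase that turns glutamine into glutamate, had thymus signals of 98.2 and 104 on the arrays labelled TRAF6 null, 208 and 206 in irradiated wild type and 109 on the unirradiated array. It too was above background, and passed the filter, through irradiated wild type alone. Gls2 fell at least 2.45-fold in thymus labelled TRAF6 null relative to irradiated wild type (limma adjusted p = 0.00258) and rose at least 2.71-fold with irradiation in wild type (limma adjusted p = 0.00686). In H1299 both GLS2 probes, at 105 to 113, were not above background on any array, so no GLS2 value is given there.

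Fdxr, ferredoxin reductase, passes electrons from NADPH to the mitochondrial ferredoxins that feed steroid hydroxylases and iron-sulphur cluster assembly. Its thymus signals were 155 and 147 on the arrays labelled TRAF6 null, 202 and 205 in irradiated wild type and 174 on the unirradiated array. Irradiated wild type was highest, but the differences did not pass: -0.43 ± 0.20 SE on the log2 scale between arrays labelled TRAF6 null and irradiated wild type (limma adjusted p = 0.145), and 0.16 ± 0.25 SE between irradiated and unirradiated wild type (limma adjusted p = 0.645). In H1299 the brighter FDXR probe read 148 ± 7.05 with K24R, 233 ± 21.8 with p53 wild type and 121 ± 5.20 with vector (SE over beads). FDXR was at least 1.31-fold higher with K24R than with vector, at least 3.65-fold higher with p53 wild type than with vector, and 2.78-fold lower with K24R than with p53 wild type. The second probe was at least 1.90-fold higher with p53 wild type than with vector and at least 2.02-fold lower with K24R than with p53 wild type. With K24R and with vector it was below background, and the signals differed by 0.7 ± 10.5 intensity units (SE over beads). It thus showed no rise with K24R over vector.

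Among the reductases, TP53I3, a quinone reductase also called PIG3, was measured in H1299. Its brighter probe read 1586 ± 34.3 with K24R, 2747 ± 80.1 with p53 wild type and 216 ± 7.19 with vector (SE over beads), and its other probe was not above background on any array. TP53I3 was 13.1-fold higher with K24R than with vector, 22.1-fold higher with p53 wild type than with vector, and 1.68-fold lower with K24R than with p53 wild type. Dcxr, which reduces dicarbonyls and L-xylulose, had thymus signals of 1077 and 1271 on the arrays labelled TRAF6 null, 1739 and 1581 in irradiated wild type and 303 on the unirradiated array. All irradiated arrays of both genotypes lay far above the unirradiated one. Dcxr rose 7.37-fold with irradiation in wild type (log2 difference 2.88 ± 0.19 SE, limma adjusted p = 0.00603) and stood 5.44-fold above the unirradiated array on those labelled TRAF6 null (2.44 ± 0.19 SE, limma adjusted p = 0.00751). Between the irradiated genotypes it differed by -0.44 ± 0.16 SE (limma adjusted p = 0.0764), although the arrays did not overlap. In H1299 DCXR was above background and nearly level, at 724 with K24R, 855 with p53 wild type and 768 with vector.

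Tgm2, tissue transglutaminase, which links glutamine to lysine residues of proteins, had thymus signals of 949.8 and 1266 on the arrays labelled TRAF6 null, 6128 and 6832 in irradiated wild type and 465 on the unirradiated array. The 3 groups stood apart, in an order of irradiated wild type, labelled TRAF6 null, unirradiated. Tgm2 fell 6.68-fold in thymus labelled TRAF6 null relative to irradiated wild type (log2 difference -2.74 ± 0.21 SE, limma adjusted p = 0.00292) and rose 20.0-fold with irradiation in wild type (4.32 ± 0.26 SE, limma adjusted p = 0.00603). Relative to the unirradiated array it stood 2.99-fold higher with the TRAF6 null label (1.58 ± 0.26 SE, limma adjusted p = 0.0162). In H1299 its brightest probe read 690 with K24R, 825 with p53 wild type and 595 with vector, a log2 difference of 0.59 between p53 wild type and vector, and the other probes gave 0.69 and 0.51.

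**Figure D1:**
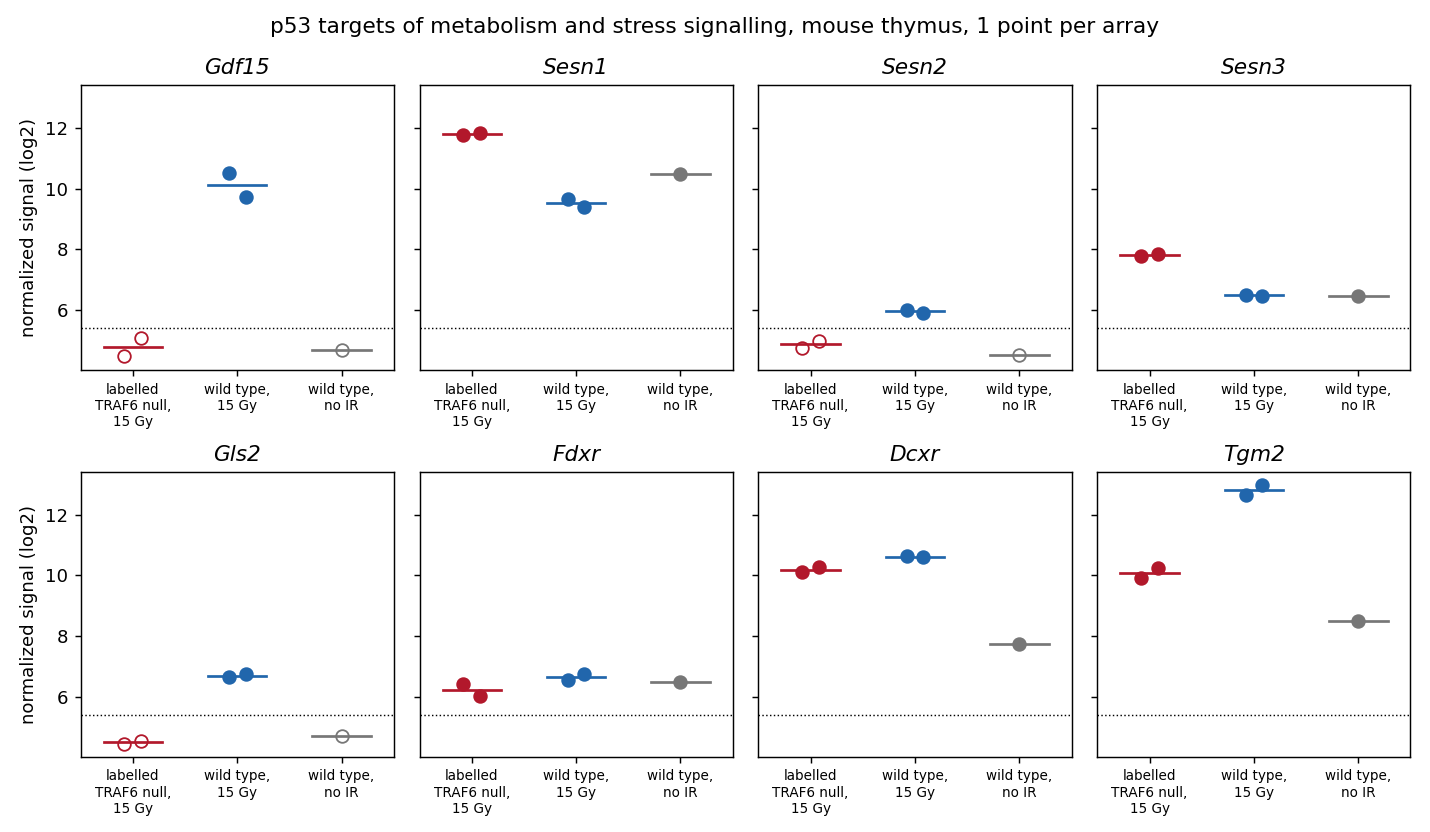
Normalized log2 signal of the 8 genes with a thymus row, 1 point per array, with a line at each group mean. Open points were not above background, and the dotted line marks the highest of the arrays' lowest values above background (log2 5.41). Gdf15, Sesn2 and Gls2 are above background in irradiated wild type alone, Sesn1 and Sesn3 are highest on the arrays labelled TRAF6 null, and Dcxr is high on all irradiated arrays.

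**Figure D2:**
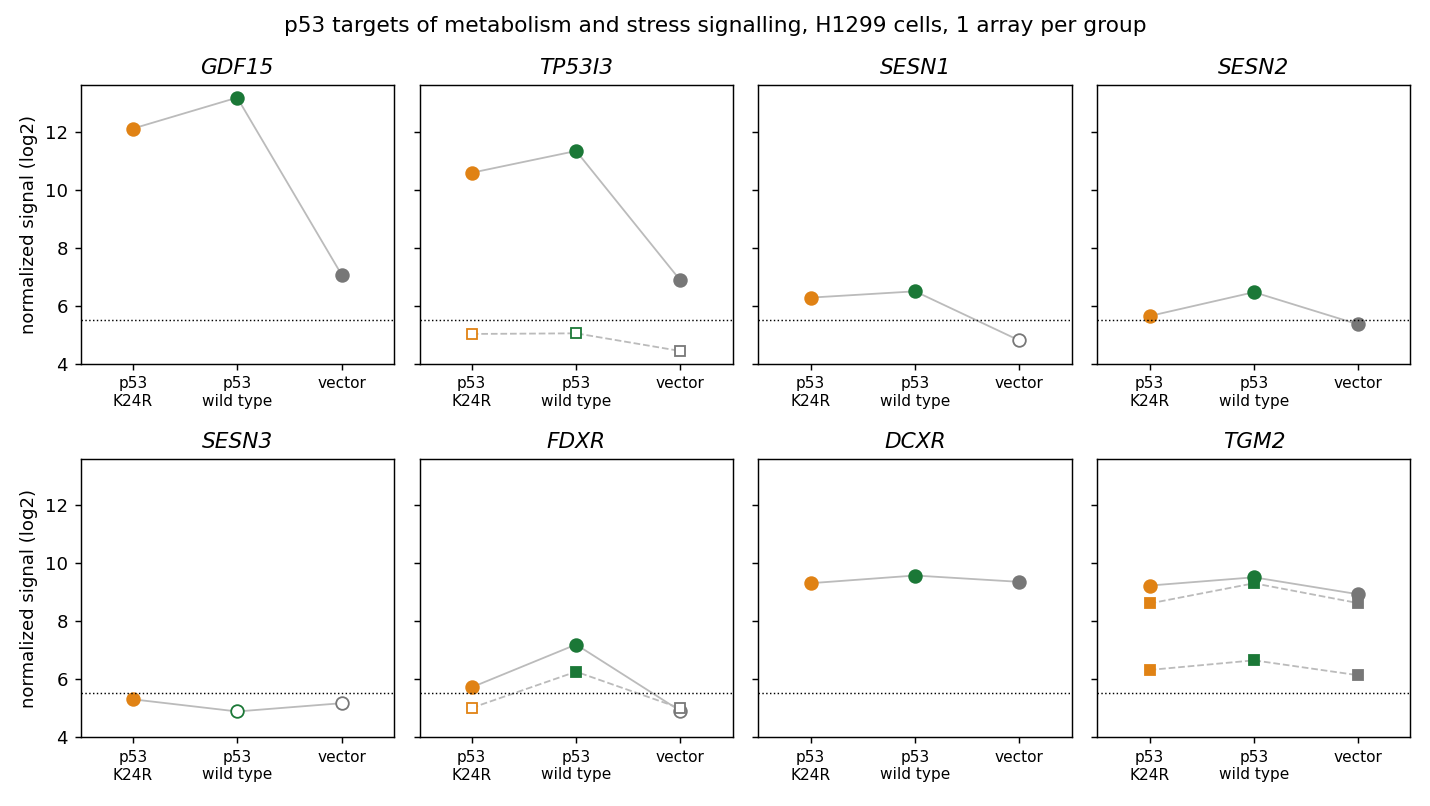
Normalized log2 signal of the 8 genes with a probe above background in H1299, 1 array per group. Circles joined by a solid line are the probe that represents the gene, squares and dashed lines are other probes of it, open symbols were not above background by their detection p-value, and the dotted line marks log2 5.51, the highest of the arrays' lowest values above background. GDF15 and TP53I3 stand far above vector with either form of p53. DCXR is nearly level, and TGM2 is higher with p53 wild type than with vector by less than 2-fold.

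Counted over the genes, 2 of 8 rose and 4 of 8 fell in thymus labelled TRAF6 null relative to irradiated wild type, where 43.6% of all rows were called (20.8% higher and 22.8% lower). With irradiation in wild type 5 of 8 rose and 1 fell, where 36.2% of all rows were called (18.7% higher and 17.6% lower). With the TRAF6 null label 4 of 8 rose relative to the unirradiated array, where 28.6% of rows were called (13.6% higher and 15% lower), and in that comparison label and irradiation cannot be told apart. Gdf15, Gls2 and Sesn2 passed the detection filter only through the irradiated wild-type arrays, so they had to differ, and these counts support nothing. Over the 5 genes detected on all 5 arrays, 2 rose and 1 fell in the first comparison, 2 rose and 1 fell in the second, and 4 rose in the third. Of all 7679 rows detected on all 5 arrays, 44.7%, 41.9% and 30.2% were called in the same comparisons. The median log2 difference over the 5 genes was -0.43, 0.16 and 1.35, against 0.07, -0.03 and 0.00 over those rows. The 3 comparisons share arrays, so their values stand side by side and are no evidence for each other.

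Some of these calls rested on single arrays or on the background estimate. Without either irradiated wild-type array, Sesn2 (limma adjusted p = 0.0837 and 0.0799) and Sesn3 (0.0525 and 0.0632) no longer passed between the irradiated genotypes, and no gene passed with irradiation in wild type (limma adjusted p of the 6 called genes 0.056 to 0.168), although 6 genes without the first such array and 5 without the second had an unadjusted p under 0.05. Without either of them Dcxr alone stayed past the threshold between arrays labelled TRAF6 null and the unirradiated array. With the background inferred by limma's own routine the differences of genes near background shrank, and the bounds and folds printed for Gdf15, Gls2, Sesn2 and Sesn3 do not hold under it. Relative to irradiated wild type, Gdf15 then differed by -2.42 on the log2 scale (limma adjusted p = 0.0479), Gls2 by -0.17 (0.0298), Sesn2 by -0.06 (0.125) and Sesn3 by 0.28 (0.0168) in thymus labelled TRAF6 null. With irradiation in wild type Gdf15 differed by 2.43 (limma adjusted p = 0.0688), Gls2 by 0.15 (0.0475) and Sesn2 by 0.09 (0.116). Relative to the unirradiated array Sesn3 differed by 0.28 under the TRAF6 null label (limma adjusted p = 0.0263) and Tgm2 by 1.67 (0.0558). Dcxr passed under it as lower in thymus labelled TRAF6 null than in irradiated wild type (-0.56, limma adjusted p = 0.0424). Dcxr passed as lower in thymus labelled TRAF6 null without array 2 of that label (log2 difference -0.52, limma adjusted p = 0.0451), and Fdxr without array 1 (-0.62, limma adjusted p = 0.0373).

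In H1299, where 1 array a group allows no test, 3 of 8 genes were 2-fold or more higher with K24R than with vector (GDF15, TP53I3 and SESN1), where 2.06% of 12602 genes were 2-fold apart in either direction, 1.39% higher and 0.667% lower. With p53 wild type 5 of 8 were 2-fold or more higher than with vector (these and FDXR and SESN2), where 5.1% were 2-fold apart, 2.78% higher and 2.33% lower. Between K24R and p53 wild type 2 of 8 were 2-fold or more lower (GDF15 and FDXR), where 2.86% were 2-fold apart, 1.17% higher and 1.68% lower. FDXR and SESN1 were not above background with vector and passed the filter through the p53 arrays, and SESN3 through K24R alone, so the counts over 8 genes support nothing. Over the 5 genes above background on all 3 arrays (GDF15, TP53I3, SESN2, TGM2 and DCXR), 2 were 2-fold or more higher with K24R than with vector, where 0.614% of 9607 such genes were. With p53 wild type 3 were higher than with vector, where 1.52% were, and 1 was lower with K24R than with p53 wild type, where 0.708% were. The median log2 difference over the 5 genes was 0.30, 1.11 and -0.75 in these comparisons, against -0.02, 0.00 and -0.02 over the 9607. With no background correction GDF15 and TP53I3 alone were 2-fold or more higher with p53 wild type than with vector. FDXR, SESN1 and SESN2 lie close to background on these arrays.

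The rise over vector with K24R was expressed as a share of the rise with p53 wild type, on the corrected linear scale. It came to 46.9% for GDF15 and 57.5% for TP53I3. For SESN2 it was 19.1%, but the rise with K24R was 9.7 ± 12.2 intensity units before correction (SE over beads), less than the bead error. The 3 TGM2 probes gave 46.3%, 31.5% and -1.30%, so the share for TGM2 differs between probes of the same gene. For DCXR it was -19.2%, since K24R read below vector. That difference was -44.4 ± 28.4 intensity units before correction, and p53 wild type lay 86.9 ± 39.0 above vector (SE over beads). FDXR and SESN1 were not above background with vector, and no share is given. How far these shares would vary between cultures is not known. For the brighter probe of CDKN1A, p53's target of cell cycle arrest, the log2 differences were 1.97 between K24R and vector and 2.65 between p53 wild type and vector. K24R differed from p53 wild type by -0.68. The second CDKN1A probe was not above background with vector. It was at least 10.9-fold higher with K24R and at least 13.7-fold higher with p53 wild type, and K24R differed from p53 wild type by -0.34 on the log2 scale. For MDM2, the ligase that holds p53 down, the other probes were not above background on any array, and the brightest probe was not with vector. It was at least 2.03-fold higher with K24R than with vector and at least 1.92-fold higher with p53 wild type than with vector, and K24R differed from p53 wild type by 0.08 on the log2 scale.

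Set beside each other, irradiation in wild-type thymus and p53 in H1299 shared the rise of some genes and not others, among the 6 genes with a value in both. GDF15 and SESN2 were higher in both. In thymus both passed the detection filter through the irradiated wild-type arrays alone, so they had to differ there. The log2 difference of SESN2 in H1299 was 1.11, and 0.38 in the authors' matrix. Tgm2 and Dcxr rose in thymus but were under 2-fold apart in H1299 (log2 0.59 and 0.22). SESN1 was lower in irradiated thymus and higher with p53 in H1299, and FDXR did not pass in thymus and was at least 3.65-fold higher with p53. The tissues, species and arrays differ, and the difference between the responses was not tested.

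**Figure D3:**
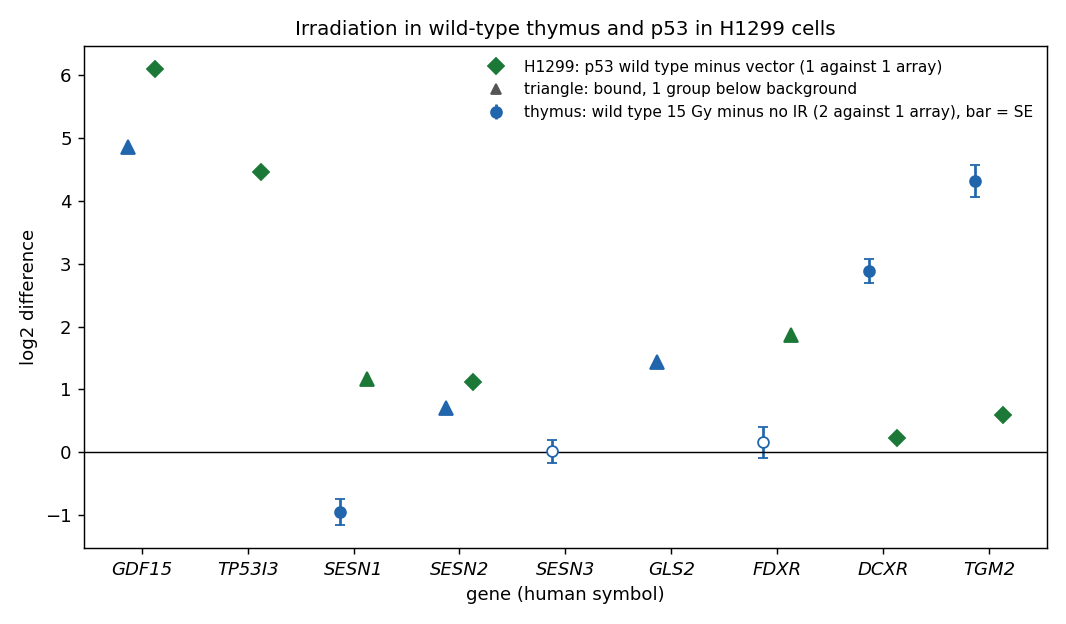
Log2 difference of each gene between irradiated and unirradiated wild-type thymus (circles with SE from limma, filled where the adjusted p is under 0.05) and between p53 wild type and vector in H1299 (diamonds, no replicate). Triangles, with no SE, are bounds for genes below background in 1 group, and SESN3 in H1299 is not drawn. GDF15 is high on both, TGM2 and DCXR are past 2-fold in thymus alone, and SESN1 lies on opposite sides of 0.

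The arrays labelled TRAF6 null and the K24R array were also set side by side, each against its own wild type. GDF15 was lower in both, at least 26.3-fold in thymus and 2.10-fold in H1299, and SESN2 was lower in both, at least 1.47-fold in thymus with a log2 difference of -0.82 in H1299. In thymus both passed the detection filter through the irradiated wild-type arrays alone, so they had to differ there. The H1299 difference of SESN2 was -32.8 ± 17.2 intensity units (SE over beads), and -0.22 on the log2 scale in the authors' matrix. FDXR was 2.78-fold lower with K24R (log2 difference -0.47 in the authors' matrix) and did not pass in thymus (-0.43). DCXR did not pass in thymus (-0.44) and differed by -0.26 with K24R. Sesn1 and Sesn3 rose in thymus labelled TRAF6 null, while with K24R the log2 difference of SESN1 from p53 wild type was -0.22, and 0.03 in the authors' deposited matrix. TGM2 fell 6.68-fold in thymus labelled TRAF6 null and differed by -0.28 on the log2 scale with K24R.

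**Figure D4:**
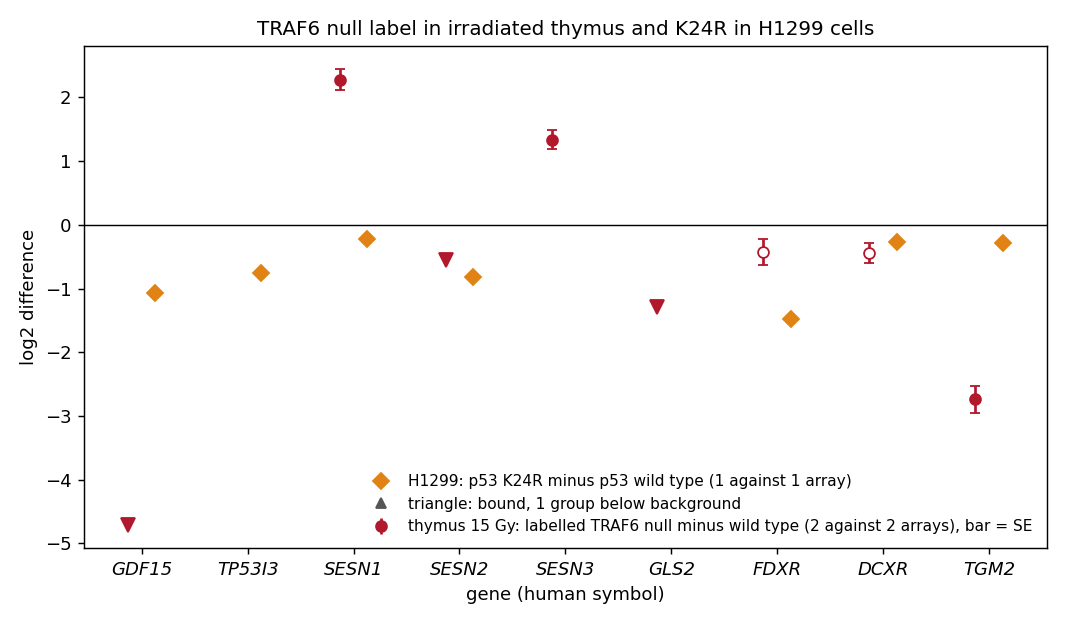
Log2 difference of each gene between irradiated thymus labelled TRAF6 null and irradiated wild type (circles with SE from limma, filled where the adjusted p is under 0.05) and between p53 K24R and p53 wild type in H1299 (diamonds, no replicate). Triangles, with no SE, are bounds for genes below background in 1 group, and SESN3 in H1299 is not drawn. Sesn1 and Sesn3 lie above 0 in thymus, and the bound for Gdf15 lies lowest.

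The wider p53 programme gave the setting for these genes. Of 18 tested p53 targets of arrest, apoptosis and feedback, 3 rose and 7 fell in thymus labelled TRAF6 null relative to irradiated wild type (median log2 difference -0.78), and 10 rose and 1 fell with irradiation in wild type (median 1.71). Over all rows 43.6% were called in the first of these comparisons and 36.2% in the second. Cdkn1a had signals of 994 and 1365 on the arrays labelled TRAF6 null, 2804 and 2761 in irradiated wild type and 326 on the unirradiated array. It fell 2.53-fold in thymus labelled TRAF6 null and rose 12.5-fold with irradiation. Plk3, a stress kinase, fell 3.48-fold and rose 6.76-fold in the same comparisons. Ddb2, a DNA damage recognition protein, ran the other way, as Sesn1 did: it was 3.31-fold higher in thymus labelled TRAF6 null (limma adjusted p = 0.00417) and fell 2.56-fold with irradiation in wild type (limma adjusted p = 0.0123). In H1299, 11 of 21 such genes were 2-fold or more higher with p53 wild type than with vector, among them SFN at least 6.25-fold and PLK3 7.45-fold, while 7 of 21 were with K24R. Of all 12602 genes kept, 2.78% were with p53 wild type and 1.39% with K24R. Of 10 other p53 targets of metabolism tested in thymus, 2 rose and 2 fell in thymus labelled TRAF6 null and 4 rose with irradiation. Both counts are near the share of all rows called. Aldh4a1, a mitochondrial enzyme of proline breakdown, fell 2.51-fold and rose 2.33-fold in those comparisons, and Ddit4, an inhibitor of mTORC1, rose 2.78-fold with irradiation. Abat, which breaks down GABA, was 2.50-fold higher in thymus labelled TRAF6 null. In H1299, 2 of 13 such genes, GAMT at 2.40-fold and PLTP at 2.15-fold, were higher with p53 wild type than with vector, where 2.78% of all genes kept were.

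The counts of the lists below stand beside the 43.6%, 36.2% and 28.6% of all rows called in the same comparisons. Of 10 FOXO factors and targets, 4 rose and 2 fell in thymus labelled TRAF6 null relative to irradiated wild type (median log2 difference 0.58). Depp1, a FOXO target of fasting listed under an older clone name, rose 48.1-fold, Txnip, an inhibitor of glucose uptake, 3.32-fold and Pik3ip1, an inhibitor of PI3 kinase, 2.73-fold, while Bcl6 fell 1.82-fold. Relative to the unirradiated array 5 of 10 rose on those arrays and 1 fell, with Depp1 79.8-fold higher and Irs2, an insulin receptor substrate, 4.29-fold higher. In H1299 no FOXO list gene was 2-fold apart in any comparison, of 10 kept. Of 14 sestrin partners and mTORC1 regulators, 1 rose and 6 fell in thymus labelled TRAF6 null, with Keap1, the sensor of oxidative stress, 2.35-fold lower and Nprl2, a subunit of the GATOR complex, 1.69-fold lower. With irradiation in wild type 4 of those 14 rose, with Srxn1, which restores peroxiredoxins, 4.33-fold and Sqstm1, an autophagy receptor, 2.80-fold higher, and 1 fell. Both counts are near the share of all rows called. Of 15 ATF4 response genes, 4 rose and 3 fell in thymus labelled TRAF6 null, and 6 rose and 1 fell with irradiation, with Atf3 at least 8.38-fold and Cebpb 7.92-fold higher and Phgdh, of serine synthesis, 5.55-fold lower. Under the TRAF6 null label 10 of the 15 were higher than on the unirradiated array (median log2 difference 1.33). Sesn2 and Gdf15 were below background on both groups of arrays, and the part of ATF4 in their values was not tested.

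Around the enzymes, Mmp14, a membrane metalloproteinase, and Furin, a convertase of growth factor precursors, both from the GDF15 receptor and processing list, rose 6.10-fold and 3.36-fold with irradiation in wild type, and Mmp14 fell 3.70-fold in thymus labelled TRAF6 null. Of 11 genes of the ferredoxin and iron-sulphur system, 3 rose in thymus labelled TRAF6 null, among them Nfs1 1.72-fold and Cox15 1.69-fold, and 3 fell with irradiation, among them Cyp11a1 4.22-fold and Nfs1 1.74-fold, both counts below the share of all rows. Of 7 glutamine and glutathione genes, 1 fell and 1 rose with irradiation (Glud1, which turns glutamate into oxoglutarate, 1.85-fold higher), and Oat, which makes glutamate semialdehyde, was 1.70-fold higher in thymus labelled TRAF6 null. In H1299 SLC38A2, a glutamine carrier, was 3.83-fold lower with p53 wild type than with vector. Among other transglutaminases Tgm1, of skin barrier formation, fell 3.34-fold in thymus labelled TRAF6 null and rose 5.48-fold with irradiation, in the same directions as Tgm2. Of 9 quinone reductase and glucuronate genes, 4 rose and 1 fell in thymus labelled TRAF6 null, while with irradiation 1 rose, Vat1 8.21-fold, and 2 fell. Akr1b3, an aldose reductase, was 2.82-fold higher in thymus labelled TRAF6 null and fell 3.78-fold with irradiation.

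Markers of several cell types moved with these comparisons. In bulk tissue fewer cells of a type and less RNA per cell cannot be told apart. The summed corrected signal of 9 medullary epithelial markers was 2608 and 6419 on the arrays labelled TRAF6 null, 22902 and 23576 in irradiated wild type and 5698 on the unirradiated array. It was highest on the arrays on which Tgm2 was highest, as was the sum of the dendritic cell markers below. Gdf15, Gls2 and Sesn2 were highest there too, but they passed the detection filter through those arrays alone. All 8 of the tested ones fell in thymus labelled TRAF6 null, Aire and Fezf2 were below background there, and 7 of 8 rose with irradiation. Macrophage markers summed to 23955 and 31745 under that label, against 26540 and 25413 in irradiated wild type and 10111 on the unirradiated array. Like Dcxr, they were higher on every irradiated array than on the unirradiated one. The endothelial, fibroblast, adipocyte and neutrophil sums below were so too. Of 12 macrophage markers tested, 9 rose with irradiation, and Msr1 was below background on every array. Double-positive thymocyte markers summed to 4190 and 3061 under that label, against 8559 and 5048 in irradiated wild type and 22071 unirradiated, with Cd8a below background on every array. T lineage markers summed to 28239 and 20387 under that label, against 22808 and 20358 in irradiated wild type and 49202 unirradiated. Fibroblast markers summed to 6966 and 8097 under that label, against 2571 and 2661 in irradiated wild type and 1669 unirradiated, and adipocyte markers to 6361 and 7891 under that label, against 2910 and 2935 in irradiated wild type and 1506 unirradiated, with Plin1, Fabp4 and Lep below background on every array. Both lists were highest on the arrays labelled TRAF6 null and lowest on the unirradiated array, as were the neutrophil markers below. Sesn1 and Sesn3 were also highest on the arrays labelled TRAF6 null, and Sesn1 was lowest in irradiated wild type. B cell markers summed to 721 and 659 under that label, against 206 and 175 in irradiated wild type and 533 unirradiated, highest and lowest on the same groups of arrays as Sesn1, with Ms4a1 and Pax5 below background on every array. Of 3 tested, 1 rose under the label relative to irradiated wild type and 1 fell with irradiation. Erythroid markers summed to 48907 and 48858 under that label, against 31695 and 50409 in irradiated wild type and 42001 unirradiated, and of 6 tested 3 rose under the label and 3 fell with irradiation. Endothelial markers summed to 2728 and 3482 under that label, against 2865 and 2505 in irradiated wild type and 940 unirradiated, with 6 of 9 tested ones higher after irradiation in wild type and Kdr below background on every array. Dendritic cell markers summed to 990 and 941 under that label, against 2809 and 2971 in irradiated wild type and 1150 unirradiated, with Itgax, Clec9a and Flt3 below background on every array. Neutrophil markers summed to 11967 and 15984 under that label, against 8831 and 8708 in irradiated wild type and 6651 unirradiated. The part of these cell types in the results was not tested.

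The rows most like each gene were found by the distance between log2 values centred on each row's mean over the 5 thymus arrays. For Tgm2 the nearest included Palld (distance 0.58) and Tnfrsf12a (0.76), where the median row lay at 3.88. For Gdf15 they were Nes (1.32), Csf1 (1.95) and Cldn4 (2.01), with the median row at 5.96. Gdf15, and Sesn2 below, passed the detection filter through irradiated wild type alone. Rows near them therefore had to be high there too, and their names say nothing further. For Dcxr they were Slc11a1 (0.23), Clec4d (0.27) and Abhd4 (0.33), with the median row at 2.59. Near rows with a gene name were Cnpy3 (0.18) for Sesn1, Smpdl3a (0.14) for Sesn3 and Tmem82 (0.13) for Sesn2. Fdxr, whose values differ little between arrays, lay near many rows, with the median row at 1.10. With 5 arrays in 3 groups, such likeness is a description of these arrays.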

How the data were processed

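The members and gene lists were chosen with earlier results of these data known. The authors deposited non-normalized tables that hold, per the file headers, a linear bead intensity, a bead count, a standard error over beads and a detection p-value. The mouse table has 1 row per symbol, so probes were averaged before deposit. The values in the authors' matrix are these intensities times 1 constant per array (0.899 to 1.06); its scale is linear and not centred, and the choice of constants is not given in the sources used here. Its medians were 102 to 124.

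Intensities were background-corrected (normexp, offset 16), quantile-normalized and taken to log2 in limma 3.58.1 (R 4.3.3), mouse and human apart. For mouse, the negative controls' mean and SD were estimated by regressing median signals at given detection p-values on normal quantiles. Rows were tested where 2 or more of 5 arrays had a detection p under 0.01, with lmFit and eBayes (2 residual and 2.88 prior degrees of freedom, two-sided, Benjamini-Hochberg at 0.05). The unirradiated array is assumed to vary like the others. Human probes needed detection on 1 array, and a gene took its detected probe of highest mean. Above background means over the 99th percentile of negatives (122 to 128) for mouse and detection p under 0.01 for human. On simulated data 76 of 80 changes of 1 log2 unit between the irradiated groups were recovered among 11563 rows. Over all sizes of change simulated there were 15 false calls. Rows detected per array numbered 9493 to 11177 in thymus and 12716 to 14233 in H1299, with median bead numbers of 41 to 43 and 21 to 22. Replicate arrays correlated at 0.971 (labelled TRAF6 null) and 0.988 (irradiated wild type) across rows. Named genes are all members, the genes that check the labels, at most 4 per list with the smallest adjusted p in a thymus comparison and 3 with the largest H1299 difference, and the 3 nearest rows. Alternatives were the background estimate, none, median scaling, the authors' matrix, the offset, the filter, the replicate block and each replicated array left out. Some genes that this rule names are not reported here.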

Additional observations from a re-analysis of the deposited data

How the results depend on the processing

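Across alternatives, 235 thymus values kept direction and side of the threshold, 26 fell short of it, 8 newly passed and 2 turned sign. Detection on all 5 arrays, which leaves 5 genes, gave 3 called genes between the irradiated genotypes and 3 with irradiation, against 6 each. Leaving out each replicated array gave 4 to 7 called genes between the irradiated genotypes, 0 to 6 with irradiation in wild type and 1 to 4 between arrays labelled TRAF6 null and the unirradiated array. Without either irradiated wild-type array limma called 0 genes with irradiation, and 0 rows in all, where 6 and 5 genes had an unadjusted p under 0.05. Both sign changes were in differences near 0: Sesn3 with irradiation (-0.011 to 0.033 on leaving out either irradiated wild-type array, negative without array 1) and Gdf15 between arrays labelled TRAF6 null and the unirradiated array (-0.17 to 0.40 when either array of that label was left out, negative without array 2).

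With no background correction or the authors' matrix, 2 genes, not 5, were 2-fold or more higher with p53 wild type than with vector, and 1, not 2, was lower with K24R than with p53 wild type. Of H1299 values 43 moved and 101 did not. Between the irradiated genotypes, calls over all rows split into 2404 higher and 2641 lower, into 1966 and 3413 with median scaling and into 1247 and 4390 with the authors' matrix, whose median log2 differences were -0.19 and -0.28. With irradiation the split of 2157 higher and 2031 lower became 3392 and 1484 with the matrix (median 0.26), and for arrays labelled TRAF6 null against the unirradiated array 1573 and 1738 became 1031 and 1845. Over all rows, the calls in these 3 comparisons numbered 5045, 4188 and 3311. They numbered 2951, 2763 and 1831 with limma's own background routine, and ranged from 500 to 6076, from 0 to 6376 and from 871 to 5013 with 1 replicated array left out; the lowest came without an irradiated wild-type array, where 3831 and 3497 rows had an unadjusted p under 0.05 with irradiation. Dcxr and Fdxr also passed as lower in thymus labelled TRAF6 null with the matrix (-0.62 and -0.54). The cause was not tested.

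Same-numbered irradiated arrays share only a number: their deviations from group means correlated at 0.032 across rows. With that number as a replicate block the same count of 6 genes was called and 4985 rows, against 5045. With 1 or 2 arrays a group, their number limits precision, and genes near background have understated folds.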
